A study of Mus musculus with 8 samples.

Results

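The enzymes that write, maintain and remove DNA methylation were followed in mouse CD8+ T cells stimulated through the T cell receptor (TCR), treated with interferon β (IFNβ), or both. The set held 8 genes: the DNA methyltransferases Dnmt1, Dnmt3a and Dnmt3b, the maintenance cofactor Uhrf1, the dioxygenases Tet1, Tet2 and Tet3, and Ezh2, which methylates a histone and not DNA. They were chosen by name from the gene names in the scanner files, and each was read from its brightest probe over the 7 conditions. All 8 were among the 19892 genes tested, and they had 14 of the 41174 probes that were not controls. The cells were CD8+ T cells purified from the spleens of OT-I mice (OT-I TCR tg, on the C57BL6 background), whose transgenic receptor recognises the SIINFEKL peptide on H-2Kb, and every group shared this genotype. TCR stimulation used streptamers that carry this peptide and class I molecule. Total RNA was hybridised to 8 single-colour Agilent arrays, 4 on each of 2 slides. Slide 1 held untreated cells (replicate 1), IFNβ for 2 h, TCR stimulation for 1 h, and IFNβ for 1 h with TCR stimulation for 1 h. Slide 2 held untreated cells (replicate 2), IFNβ for 7 h, TCR stimulation for 6 h, and IFNβ for 1 h with TCR stimulation for 6 h. The labels give a time for each agent and not the order of the agents, and they do not give the age, sex or number of the mice.

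Each of the 6 treated conditions was 1 array, and no label says that the arrays came from separate animals. The p-values therefore rest on no spread between replicates of a treatment. In the additive fit the spread is the departure of the samples from a model with 1 IFNβ term for all IFNβ times. In the fit with interactions, a gene's own spread is only the difference between the 2 arrays with IFNβ alone. Part of either spread may be technical. The 2 untreated arrays agreed within spot noise (SD of the log2 difference 0.058 over 153 repeatedly spotted probes, against 0.056 from spot noise alone), so their mean was counted as 1 sample and the fits used 7 samples. The 75th percentile of the signal lay between 807.4 and 1241 on the 8 arrays, and between 26065 and 29533 of 43379 spots were well above background. The scanner files of the arrays labelled TCR 1 h and IFNβ 1 h + TCR 1 h match each other's columns in the series value table, and the value table's naming was used. Under that naming the antiviral gene Ifit1 read 627.4 on the TCR 1 h array and 150166 on the IFNβ 1 h + TCR 1 h array, against 561.4 and 564.9 untreated. The CD8 T cell marker Cd8a was well above background on all 8 arrays. Summed B cell marker signal, over 5 measured genes, was 14813 and 14528 on the untreated arrays, 47542 and 40104 with IFNβ alone, 13078 and 12339 on the TCR 1 h pair, and 5182 and 5976 on the TCR 6 h pair. Summed NK cell marker signal over 4 genes was 576 and 575 untreated, 2561 and 3730 with IFNβ alone, 448 and 2056 on the TCR 1 h pair, and 901 and 890 on the TCR 6 h pair. Most of that sum was Eomes, which T cells also express, and without it the other 3 genes summed to 211.3 and 212.4 untreated, 454.5 and 592.4 with IFNβ alone, 196.5 and 133.1 on the TCR 1 h pair, and 119.8 and 132 on the TCR 6 h pair. The B cell gene Pax5 was well above background on none of the 8 arrays. In bulk RNA, fewer cells of a type and less RNA per cell cannot be told apart.

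Methylation of cytosine in CpG dinucleotides is set by the de novo enzymes Dnmt3a and Dnmt3b. Dnmt1 copies it onto the new strand after replication, and Uhrf1 brings Dnmt1 to half-methylated sites. Tet enzymes oxidise methylcytosine, after which the thymine DNA glycosylase Tdg and base excision repair can restore plain cytosine. Ezh2 is the catalytic subunit of Polycomb repressive complex 2, which methylates lysine 27 of histone H3. In CD8 T cells these enzymes are known for silencing and reopening genes as naive cells become effector and memory cells. The values here are messenger RNA levels, and DNA methylation itself was not measured.

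The probes that read Dnmt3a, Ezh2 and Dnmt1 are shown because each lies across an intron, so that its letters join 2 exons. They are 60 bases long, in the sense of the transcript, and their positions are on mm9. The Dnmt3a probe spans chr12:3906868-3907649 on the plus strand, the Ezh2 probe chr6:47482047-47482942 on the minus strand, and the Dnmt1 probe chr9:20711973-20712341 on the minus strand.
Dnmt3a probe: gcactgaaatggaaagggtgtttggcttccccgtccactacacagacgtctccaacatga
Ezh2 probe: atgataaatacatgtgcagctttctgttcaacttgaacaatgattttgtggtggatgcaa
Dnmt1 probe: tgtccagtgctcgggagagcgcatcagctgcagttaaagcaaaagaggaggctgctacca

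The promoters of the 3 genes that rose after 6 h of TCR stimulation and of Uhrf1 are shown with every CpG in capitals, since CpG is the site these enzymes act on. Each is the 250 bases before the start of the most upstream RefSeq transcript on GRCm38. The Dnmt3a promoter (chr12:3806730-3806979, plus strand) held 38 CpG, the Dnmt3b promoter (chr2:153649199-153649448, plus strand) 21, the Ezh2 promoter (chr6:47595031-47595280, minus strand) 23 and the Uhrf1 promoter (chr17:56303087-56303336, plus strand) 10.
Dnmt3a promoter: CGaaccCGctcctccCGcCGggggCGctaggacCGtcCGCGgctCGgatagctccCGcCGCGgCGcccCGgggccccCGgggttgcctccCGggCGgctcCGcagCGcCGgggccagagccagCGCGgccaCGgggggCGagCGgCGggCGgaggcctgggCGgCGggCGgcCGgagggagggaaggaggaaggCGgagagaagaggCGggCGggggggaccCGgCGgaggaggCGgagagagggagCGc
Dnmt3b promoter: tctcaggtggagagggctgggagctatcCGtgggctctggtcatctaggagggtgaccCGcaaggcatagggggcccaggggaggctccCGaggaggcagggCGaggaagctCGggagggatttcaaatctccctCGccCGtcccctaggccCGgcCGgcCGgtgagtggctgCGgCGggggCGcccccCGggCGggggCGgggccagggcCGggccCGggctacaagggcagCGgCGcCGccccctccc
Ezh2 promoter: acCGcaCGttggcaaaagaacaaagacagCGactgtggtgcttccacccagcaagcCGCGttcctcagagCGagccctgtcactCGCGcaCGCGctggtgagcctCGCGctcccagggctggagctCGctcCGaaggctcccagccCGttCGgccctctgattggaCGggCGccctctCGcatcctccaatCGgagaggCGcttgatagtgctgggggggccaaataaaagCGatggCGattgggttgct
Uhrf1 promoter: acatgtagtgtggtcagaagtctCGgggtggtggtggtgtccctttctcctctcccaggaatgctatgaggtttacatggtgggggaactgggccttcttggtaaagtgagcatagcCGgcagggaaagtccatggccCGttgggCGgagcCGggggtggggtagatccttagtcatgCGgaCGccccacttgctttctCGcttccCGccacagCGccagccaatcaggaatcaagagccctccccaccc

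These promoters were searched on either strand for motifs of the regulators that TCR and interferon signals use. No promoter of a member held the interferon-stimulated response element (GAAA, any 2 bases, GAAA), which 2.98% of 32851 promoters hold. None held TTCNNNGAA, the gamma-activated site (7.02%), TGAGTCA, the AP-1 motif (4.46%), or the NF-kB motif (0.14%) either. GGAAAA, the core of the NFAT motif (20.4%), was in 1 promoter of Dnmt1 and in that of Tet1, and GGGCGG, the Sp1 motif (32.7%), was in a promoter of every member but Ezh2. The 4 E2F motifs searched (TTTCCCGC, TTTGGCGC, TTTCGCGC and TTCCCGCC) overlap in part and were found in 2.92% of promoters. Among the members, the printed Uhrf1 promoter held TTCCCGCC, and a start further downstream (chr17:56304063-56304312) held TTTCGCGC. A Dnmt1 promoter (chr9:20952624-20952873) held TTTCGCGC. E2F factors drive genes of DNA replication, but a match is only a description of the letters.

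Dnmt3a, Dnmt3b and Ezh2 were higher and Tet3 was lower after 6 h of TCR stimulation, with or without IFNβ. In the fit adjusted for IFNβ, the changes were 3.62-fold for Dnmt3a, 3.43-fold for Dnmt3b, 2.15-fold for Ezh2 and 2.88-fold for Tet3. The reference of this fit includes the arrays with IFNβ alone, where Tet3 was high. Against the untreated mean, Tet3 was 2.25-fold lower with TCR for 6 h and 2.30-fold lower with IFNβ 1 h + TCR 6 h. None of the 4 had passed the test after 1 h. Uhrf1 had a different pattern: it was lowest on the 2 arrays with IFNβ alone, about 4-fold below untreated, and that difference did not pass the test over all genes. Signals below are linear and scaled so that the 75th percentile of each array is 1500.

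**Figure D1:**
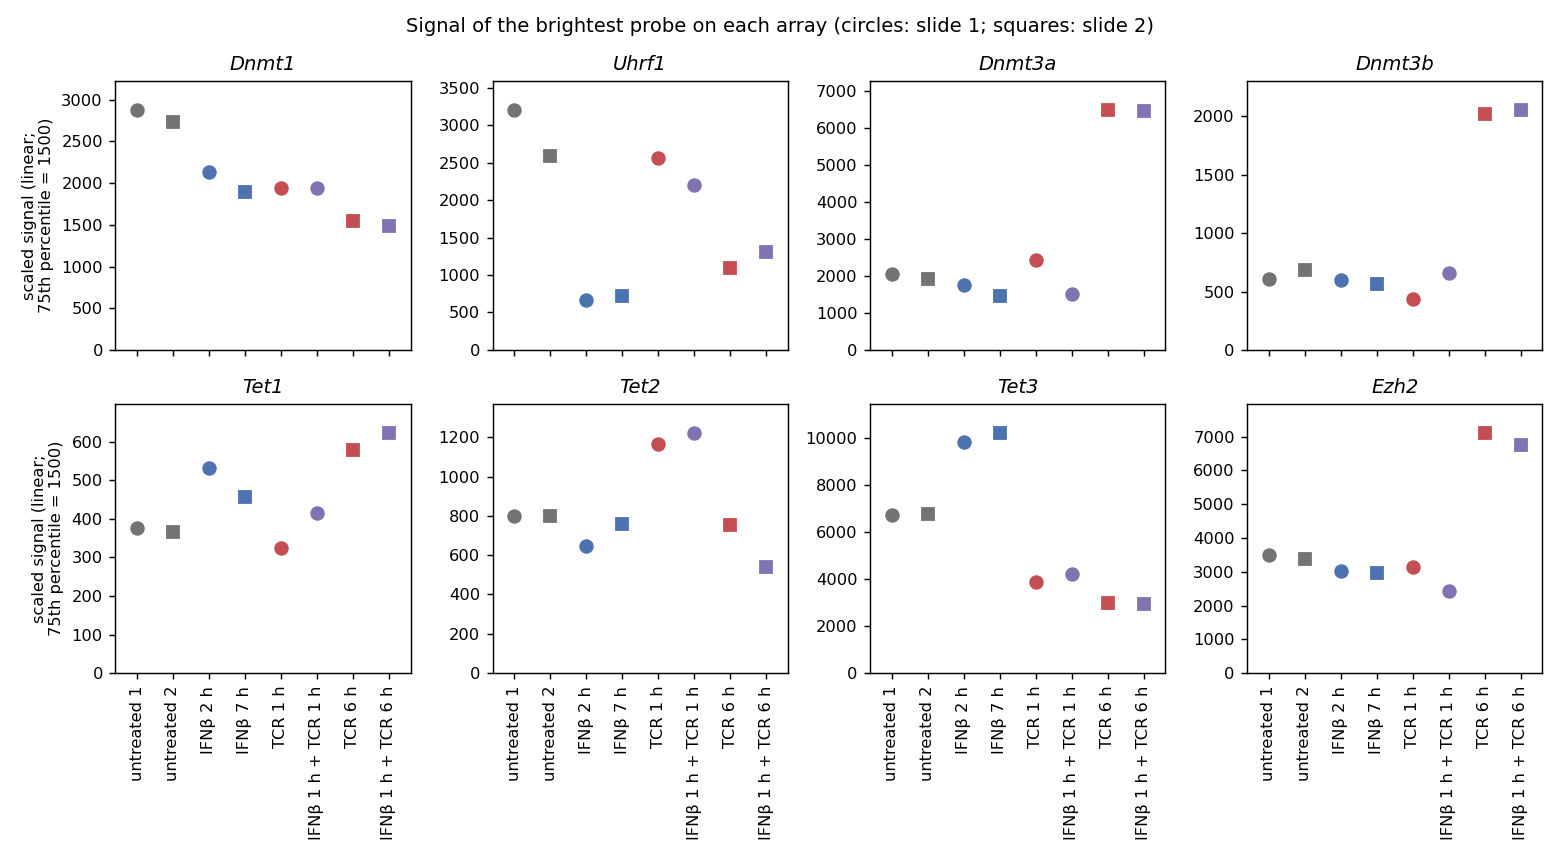
Scaled linear signal of the brightest probe of each gene on each of the 8 arrays; the vertical axes start at 0 and differ between genes, circles are slide 1 and squares slide 2, and each point is 1 array. Dnmt3a, Dnmt3b and Ezh2 stand highest on both TCR 6 h arrays, Tet3 is lowest there, and Uhrf1 is lowest on both arrays with IFNβ alone.

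Dnmt3a, a de novo methyltransferase, read 2047 and 1917 on the untreated arrays, 1751 with IFNβ for 2 h, 1469 with IFNβ for 7 h, 2433 with TCR for 1 h, 1512 with IFNβ and TCR for 1 h, 6497 with TCR for 6 h and 6460.4 with IFNβ 1 h + TCR 6 h. Both TCR 6 h arrays stood above all 6 others, as they did for 29% of 19554 genes with a value on every array, and they differed from each other by less than the untreated arrays did. In the limma fit, TCR stimulation for 6 h raised Dnmt3a by 1.86 ± 0.26 on the log2 scale (SE, 7 samples; adjusted p = 0.00217 by limma with Benjamini-Hochberg adjustment over all genes), while the 1 h difference was 0.10 ± 0.26 (adjusted p = 0.865). The other Dnmt3a probes gave the same direction at 6 h, at 1.88 (adjusted p = 0.00621) for the probe at base 3518 of the transcript and 1.54 (adjusted p = 0.0102) for that at base 7881. The 3 probes disagreed on IFNβ alone. Relative to the untreated mean, the probe at base 7881 was higher on both IFNβ arrays and the other two were lower.

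Dnmt3b, the other de novo enzyme, was read by a probe at chr2:153513083-153513142 on mm9. Its signal was 609 and 684.4 untreated, 600.9 and 563.9 with IFNβ for 2 h and 7 h, 435 with TCR for 1 h, 659.9 with IFNβ and TCR for 1 h, 2016 with TCR for 6 h and 2056 with IFNβ 1 h + TCR 6 h. The TCR 6 h arrays were again clear of the other 6. The 6 h change was 1.78 ± 0.26 (log2, SE, 7 samples; limma adjusted p = 0.00274), and the 1 h difference was -0.15 ± 0.26 (adjusted p = 0.798).

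Ezh2 read 3508 and 3378 untreated, 3023 and 2978 with IFNβ for 2 h and 7 h, 3150.4 with TCR for 1 h, 2428 with IFNβ and TCR for 1 h, 7105 with TCR for 6 h and 6761 with IFNβ 1 h + TCR 6 h. The 6 arrays without 6 h of TCR stimulation lay within a narrow range, and both TCR 6 h arrays stood above it. The 6 h change was 1.11 ± 0.22 (log2, SE, 7 samples; limma adjusted p = 0.00838). Without the IFNβ 1 h + TCR 6 h array it was 0.99 and no longer passed (limma adjusted p = 0.101). Dnmt3a and Ezh2 varied together over the 7 conditions (Pearson r = 0.975), as did Dnmt3a and Dnmt3b (r = 0.904) and Dnmt3b and Ezh2 (r = 0.929); these are descriptions over 7 points in which the TCR 6 h arrays carry most of the range.

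Of the Tet dioxygenases, Tet3 alone passed the test at 6 h, and only by its brightest probe. Its signal at that probe (chr6:83312763-83312822, mm9) was 6721 and 6750.1 untreated, 9807 and 10204 with IFNβ for 2 h and 7 h, 3890.4 with TCR for 1 h, 4206 with IFNβ and TCR for 1 h, 2990.1 with TCR for 6 h and 2932 with IFNβ 1 h + TCR 6 h. All 4 TCR arrays were below untreated and both arrays with IFNβ alone were above it, and the TCR 6 h pair was the lowest, as for 24.1% of genes. In the fit, Tet3 fell by 1.52 ± 0.25 on the log2 scale at 6 h (SE, 7 samples, limma adjusted p = 0.00389). The reference of the fit includes the high arrays with IFNβ alone, so this fall exceeds the difference from untreated. Against the untreated mean, Tet3 was at -1.17 and -1.20 on the TCR 6 h pair without and with IFNβ. Without the IFNβ 1 h + TCR 6 h array, Tet3 was at -1.30 and did not pass (adjusted p = 0.0565). The fitted 1 h difference was -1.07 ± 0.25 and did not pass (adjusted p = 0.0696). Against the untreated mean, the TCR 1 h pair was at -0.79 without and -0.68 with IFNβ. The other Tet3 probes did not give the same result. The probe at base 2202 of its transcript gave -0.66 at 6 h (adjusted p = 0.0983), and the probe at base 4483, well above background on 1 of 8 arrays, gave 0.51 (adjusted p = 0.194). On IFNβ alone, the probe at base 2202 was lower by 0.39 where the brightest probe was higher by 0.57, and neither passed.

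Tet2 read 800.9 and 798.6 untreated, 647.6 and 758.5 with IFNβ for 2 h and 7 h, 1165 and 1221 on the TCR 1 h pair without and with IFNβ, and 753.5 and 539 on the TCR 6 h pair without and with IFNβ. The TCR 1 h pair was the highest, above all 6 other arrays, as for 5.05% of genes. The 1 h difference of 0.67 ± 0.24 did not pass (limma adjusted p = 0.17), nor did the 6 h difference of -0.23 ± 0.24 (adjusted p = 0.474). The contrast of the 2 times did pass, at -0.90 ± 0.26 for 6 h minus 1 h (adjusted p = 0.0442), but it did not pass on leaving out any 1 of the 6 treated arrays (adjusted p 0.0674 to 0.261). With the slide as a block the contrast was -1.02 and did not pass (adjusted p = 0.11). The 1 h and 6 h arrays lie on different slides. Over 18 alternatives it ranged from -1.11 to -0.64, always below 0, and passed in 7. The second Tet2 probe, at base 6604, also had its highest values on the TCR 1 h pair, with 142.4 and 140.6 against 98 and 105.3 untreated. By that probe the contrast of 6 h minus 1 h was -0.95 and did not pass (limma adjusted p = 0.11). The 2 probes differed in size on IFNβ alone. The probe at base 6604 read 45.2 and 34.2 with IFNβ for 2 h and 7 h. Against the untreated mean it was at -1.17 and -1.57, where the brightest probe was at -0.30 and -0.08.

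Tet1 read 375.6 and 366 untreated, 532.6 and 456.1 with IFNβ for 2 h and 7 h, 324.7 and 414.4 on the TCR 1 h pair without and with IFNβ, and 578.5 and 622.7 on the TCR 6 h pair without and with IFNβ. The TCR 6 h arrays were the highest, but the array with IFNβ for 2 h came close. The 6 h difference was 0.47 ± 0.23 (log2, SE; limma adjusted p = 0.145), and it passed when each array was scaled to its median (0.79, adjusted p = 0.0332), which raised the 6 h median of all genes by 0.32, or by quantiles (0.69, adjusted p = 0.0426), after normexp correction (0.51, adjusted p = 0.02), and when each untreated array was its own sample (0.49, adjusted p = 0.0498).

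**Figure D2:**
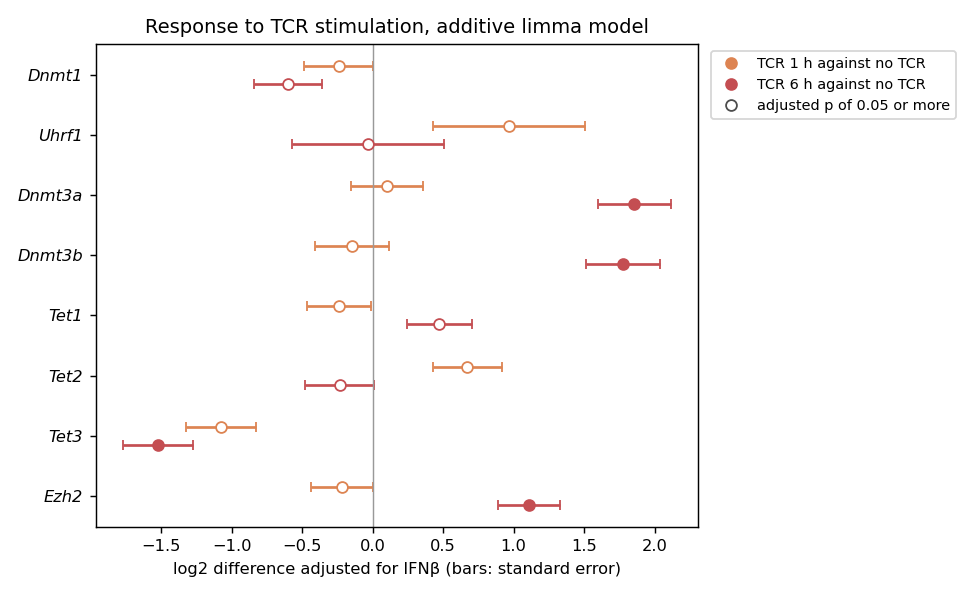
Differences after 1 h and 6 h of TCR stimulation against no TCR on the log2 scale, from the additive limma fit over 7 samples, with bars for the standard error and filled points for an adjusted p under 0.05. At 6 h Dnmt3a (1.86), Dnmt3b (1.78) and Ezh2 (1.11) lie to the right and Tet3 (-1.52) to the left, and no gene has a filled point at 1 h.

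Counted over the set, 4 of 8 genes passed at 6 h (3 higher and 1 lower), where 44.8% of the 19890 genes tested passed, 22.3% higher and 22.5% lower. The share among the enzymes is thus near that of all genes. Their median difference at 6 h was 0.22 on the log2 scale, against 0.05 over all genes. At 1 h 0 of 8 passed by limma, with 2 at an unadjusted p under 0.05 (Tet2 and Tet3), where 4.18% of 19889 genes passed and 23.4% had an unadjusted p under 0.05. The direct contrast of 6 h against 1 h called 4 of 8, where 31.7% of 19887 genes were called: Dnmt3a (1.76 ± 0.28, adjusted p = 0.00632), Dnmt3b (1.93 ± 0.29, adjusted p = 0.00515), Ezh2 (1.33 ± 0.24, adjusted p = 0.00953) and Tet2. Without the IFNβ 1 h + TCR 6 h array Dnmt3a and Ezh2 did not pass in this contrast (adjusted p = 0.0502 and 0.074), nor did Ezh2 without the IFNβ 1 h + TCR 1 h array (adjusted p = 0.0639). Within slide 2 alone, a fit of 4 arrays with 1 residual degree of freedom that called 32.5% of 19889 genes, the 6 h changes of Dnmt3a (1.95), Dnmt3b (1.71), Ezh2 (1.13) and Tet3 (-1.49) passed (adjusted p 0.0167 to 0.0478).

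Beside these changes, most marker lists were lower on the same arrays. On the TCR 6 h array 7 of 7 CD8 T cell markers, 5 of 5 measured B cell markers, 5 of 6 class II markers and 6 of 6 myeloid markers were below the untreated mean. So were 3 of 4 NK cell markers, 2 of 4 measured erythroid markers and 1 of 4 CD4 T cell markers. On the IFNβ 1 h + TCR 6 h array 7 of 7 CD8 T cell, 5 of 5 B cell, 6 of 6 class II and 6 of 6 myeloid markers were below it. There 2 of 4 NK cell, 1 of 4 erythroid and 1 of 4 CD4 T cell markers were below it. The median of all genes was at 0.17 and 0.16 on these arrays. The summed CD8 T cell marker signal was 608754 and 610614 untreated and 320634 and 343032 on the TCR 6 h pair, and the summed class II signal was 23249 and 22849 untreated and 10428 and 13466 on that pair. Their part in the results was not tested.

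Neither gene of the maintenance pair passed the test for TCR stimulation. Dnmt1, the maintenance methyltransferase, read 2879 and 2736 untreated, 2136 and 1889 with IFNβ for 2 h and 7 h, 1942 and 1947 on the TCR 1 h pair without and with IFNβ, and 1549 and 1482 on the TCR 6 h pair without and with IFNβ. Every treated array was below both untreated arrays, as for 7.03% of genes, and the TCR 6 h pair was the lowest. The 6 h difference of -0.60 ± 0.24 did not pass (log2, SE, 7 samples, limma adjusted p = 0.0893), nor did the 1 h difference of -0.24 ± 0.24 (adjusted p = 0.615). The reference of the fit includes the arrays with IFNβ alone, where Dnmt1 was low, so these values are smaller than the differences from untreated. Against the untreated mean, Dnmt1 was at -0.86 and -0.92 on the TCR 6 h pair and at -0.53 on each array of the TCR 1 h pair. When each untreated array was its own sample, the 6 h difference was -0.65 and passed (adjusted p = 0.0274), and it also passed after normexp correction (-0.58, adjusted p = 0.0394).

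Uhrf1, which recruits Dnmt1, was read by a probe at chr17:56462657-56462716 on the plus strand of mm9. Its signal was 3208 and 2592 untreated, 666.5 with IFNβ for 2 h, 715.8 with IFNβ for 7 h, 2569 with TCR for 1 h, 2210 with IFNβ and TCR for 1 h, 1089 with TCR for 6 h and 1306 with IFNβ 1 h + TCR 6 h. The arrays with IFNβ alone were the lowest of the 8, as for 13% of genes, the TCR 6 h pair was next, and the TCR 1 h pair lay near untreated. The second probe, at base 3214, had the same order of groups: 1628 and 1667 untreated, 372 and 380.2 with IFNβ alone, 1596 and 1277 on the TCR 1 h pair, and 651.1 and 818.8 on the TCR 6 h pair. Relative to the untreated mean, Uhrf1 was 4.33-fold lower with IFNβ for 2 h and 4.03-fold lower with IFNβ for 7 h. On both of these arrays at once, 102 of 19697 genes (0.518%) were at least 4-fold below the untreated mean, a fold chosen after the values of Uhrf1 had been seen. Against the untreated array of the same slide, Uhrf1 was 4.81-fold lower at 2 h and 3.62-fold lower at 7 h. The untreated arrays differed from each other by 1.24-fold for Uhrf1, replicate 2 being the lower.

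In the additive fit, which assumes the same IFNβ difference with and without TCR, Uhrf1 was at -0.81 ± 0.45 (log2, SE, 7 samples; limma adjusted p = 0.674). A contrast of IFNβ alone with untreated, added after these values had been seen, gave -2.06 ± 0.30, with an adjusted p of 0.165 by limma. No gene of 19892 was called in that contrast (0%), with 2576 at an unadjusted p under 0.05 (12.9%). Uhrf1 passed in it when the 2 untreated arrays were separate samples (adjusted p = 0.0199), which called 2053 genes, and when genes had to be well above background on all 8 arrays (adjusted p = 0.036), which called 302. With TCR stimulation the IFNβ difference of Uhrf1 was -0.22 on the 1 h pair and 0.26 on the 6 h pair. The interaction terms were 1.84 ± 0.46 at 1 h (unadjusted p = 0.016, adjusted p = 0.598) and 2.32 ± 0.46 at 6 h (unadjusted p = 0.00716, adjusted p = 0.509), in a limma fit with 1 residual degree of freedom. Neither interaction called any gene (0%), with 7.68% of 19790 and 8.19% of 19730 genes at an unadjusted p under 0.05. For TCR stimulation, the additive fit gave Uhrf1 0.96 ± 0.54 at 1 h (adjusted p = 0.347) and -0.03 ± 0.54 at 6 h (adjusted p = 0.964), although both 6 h arrays lay below untreated, since the arrays with IFNβ alone form part of its reference.

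**Figure D3:**
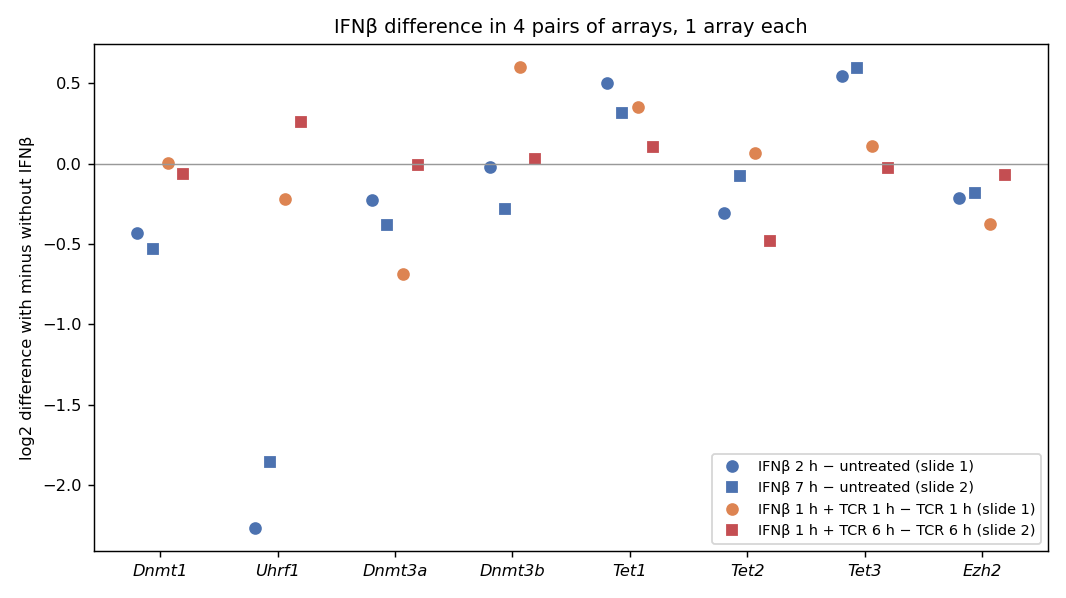
Log2 difference with minus without IFNβ in 4 pairs of arrays on the same slide, for each gene; each point is 1 array minus 1 array, so it has no error bar. Uhrf1 is at -2.27 and -1.86 without TCR and at -0.22 and 0.26 with it, and no other point lies beyond 1 in size.

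No enzyme passed for IFNβ in the additive fit, where 10 of 19892 genes passed (0.0503%, all higher) and 1707 had an unadjusted p under 0.05 (8.58%). Genes that check the IFNβ treatment did not pass either: Mx1 (134.6-fold), Ifit1 (94.2-fold), Isg15 (45.6-fold) and Irf7 (18.1-fold), with limma adjusted p 0.0501 to 0.0941. The test thus missed even differences of this size, and not passing does not show that an enzyme was unchanged. Dnmt1 was lower on both arrays with IFNβ alone than on the untreated array of its slide, by 0.43 and 0.53 on the log2 scale, and the differences with TCR were 0.00 and -0.06. Tet1 was higher with IFNβ in all 4 pairs, by 0.11 to 0.50, as were 11.5% of 19554 genes, and Ezh2 was lower in all 4 pairs, by 0.07 to 0.38, as were 9.22%. In the additive fit these came to 0.30 ± 0.19 for Tet1 (adjusted p = 0.712) and -0.21 ± 0.19 for Ezh2 (adjusted p = 0.794) by limma. On the arrays with IFNβ alone, the B cell and NK marker sums were above untreated as given above, and their part in the Uhrf1 and Tet3 values was not tested.

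**Figure D4:**
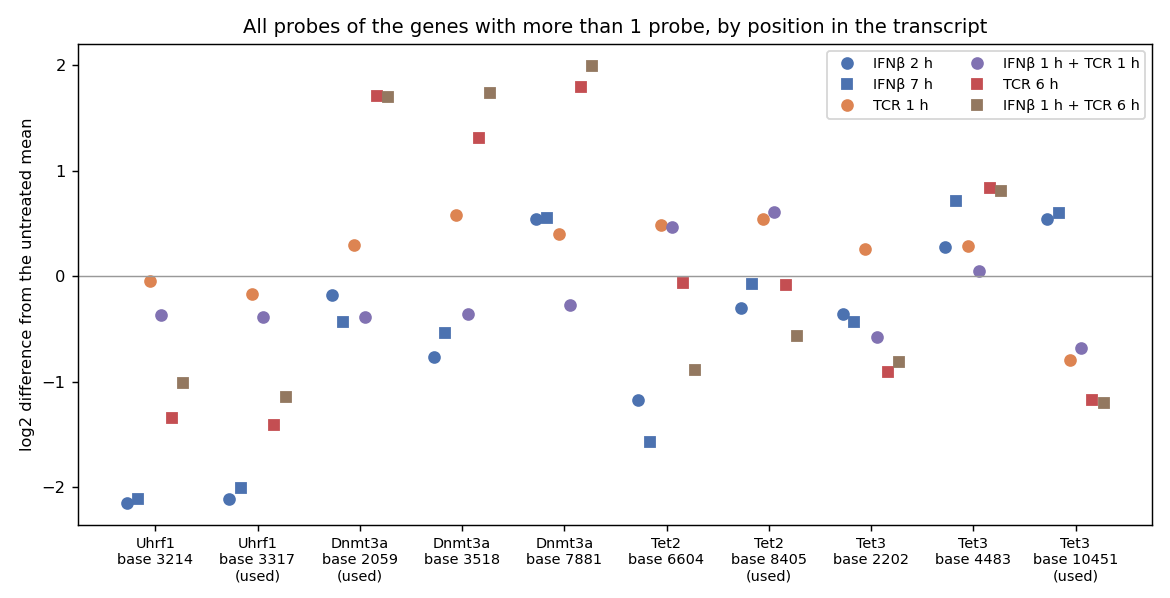
Log2 difference from the untreated mean on the 6 treated arrays for every probe of the 4 genes with more than 1 probe, ordered by position in the transcript; circles are slide 1 and squares slide 2. The 2 Uhrf1 probes run together and the 3 Dnmt3a probes are all higher on the TCR 6 h arrays, while the 3 Tet3 probes differ in direction.

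The genes whose pattern over the 7 conditions was most like a member's were taken by Pearson r over all genes tested, for members whose own SD over the conditions was above 0.5 on the log2 scale. For Uhrf1 they were Il2rb (r = 0.990), a subunit of the IL-2 and IL-15 receptors, Mcm10 (r = 0.984), a replication factor, and Mt1 (r = 0.981), a metallothionein. Il2rb read 20451 and 21437 untreated, 4364 and 5406 with IFNβ alone, and 8748 and 9371 on the TCR 6 h pair. That Il2rb shared the low arrays of Uhrf1 follows from its choice by r. For Ezh2 the nearest was Cdyl (r = 0.999), a chromodomain protein, for Dnmt3a it was Ctu2 and for Dnmt3b Fam120a (each r = 0.998), and for Tet3 it was Pola2 (r = 0.998), a subunit of DNA polymerase α. Dnmt1, Tet1 and Tet2 varied too little over the conditions for this search (SD 0.31 to 0.43 on the log2 scale).

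Other genes of the pathway came from 5 lists, read against the 44.8% of all genes that passed at 6 h. Their changes are fitted values with the arrays of IFNβ alone in the reference, so they can differ from the differences from untreated. Of 14 measured cofactors and readers of DNA methylation, 3 rose and 3 fell at 6 h, with a median of 0.04 against 0.05 over all genes. Cdca7, a partner of the remodeller Hells, rose by 4.52 ± 0.49 (log2, SE; limma adjusted p = 0.00096). The reference of this fit includes the arrays with IFNβ alone, where Cdca7 was low, so the value exceeds its difference from untreated. Its signal went from 2492 and 2465 untreated to 25151 and 24703 on the TCR 6 h pair, and it was 662.1 and 564.3 with IFNβ alone. Cdca7 was thus low on the same IFNβ arrays as Uhrf1 and high where Dnmt3a was high. The methyl-CpG binding proteins Zbtb4 (-3.52) and Mbd2 (-0.79) fell, whereas Mbd3 (1.80) and the corepressor Trim28 (1.61) rose. At 1 h 0 of 14 passed.

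Of 15 genes of base excision repair and TET partners, 6 rose and 5 fell at 6 h (median 0.32). Tdg, which excises the oxidised bases made by TET enzymes, rose by 2.18 ± 0.27 (limma adjusted p = 0.00155), and it had already risen at 1 h, by 1.56 ± 0.27 (adjusted p = 0.0382). Ung (3.11), a uracil DNA glycosylase, Apex1 (2.90), the abasic site endonuclease, and the ligase Lig3 (2.51) rose with it. Apex1 was also low with IFNβ alone (4106 and 3377, against 10217 and 8821 untreated and 37295 and 43774 on the TCR 6 h pair), so its fitted value likewise exceeds its difference from untreated. The same holds for Tdg (2691.5 and 2970 with IFNβ alone, 5333 and 5181 untreated) and Ung (1454 and 1126, against 2314.5 and 2282). Tdg read 14303 and 8470 on the TCR 1 h pair without and with IFNβ, and 17398 and 16378 on the TCR 6 h pair. The glycosylases Neil1 (-3.29), Neil3 (-2.80) and Mbd4 (-2.97) fell. Neil2 also passed as lower, but it was well above background on only 3 of 8 arrays, so no size is given. Cxxc5, a CXXC protein that binds Tet2, fell at both times (-1.87 at 1 h and -1.96 at 6 h).

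Of 12 partners of Ezh2 and H3K27 demethylases, 5 rose and 2 fell at 6 h (median 0.57). The core subunits Suz12 (1.15) and Rbbp7 (2.12) and the accessory subunits Aebp2 (1.63) and Mtf2 (0.82) rose, while the accessory subunits Phf1 (-3.95) and Phf19 (-1.01) fell. Kdm6b, which removes the mark that Ezh2 writes, rose at 1 h by 3.97 ± 0.37 (limma adjusted p = 0.00993) and at 6 h by 3.09 ± 0.37 (adjusted p = 0.00139). Its signal was 2180.1 and 2248 untreated, 51841 and 13433 on the TCR 1 h pair, and 16041 and 12694 on the TCR 6 h pair, so all 4 TCR arrays stood above the 4 arrays without TCR, as for 11.3% of genes.

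Of 12 genes of methyl donor supply and 2-oxoglutarate, 6 rose and 4 fell at 6 h (median 0.80). Mat2a, the subunit that makes the methyl donor S-adenosylmethionine, rose by 2.05 ± 0.25 at 1 h (limma adjusted p = 0.0171) and 2.87 ± 0.25 at 6 h (adjusted p = 0.00055). Ahcy (1.65), which clears S-adenosylhomocysteine, and Mtap (3.57), of methionine salvage, rose as well. Idh1 (-3.02) and Idh2 (-2.29), which make 2-oxoglutarate, the cosubstrate of TET enzymes, fell at 6 h. D2hgdh (-3.77), a dehydrogenase that clears 2-hydroxyglutarate, an inhibitor of these enzymes, fell as well.

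Of 21 genes of DNA replication and S phase, 2 rose and 6 fell at 6 h (median -0.52). Pcna (1.61) and Mcm2 (0.98) rose, and E2f2 (-3.02), Ccne1 (-2.13), Rrm2 (-1.55), Mki67 (-1.35), Chaf1b (-1.13) and Lig1 (-1.06) fell. On the arrays with IFNβ alone, where Uhrf1 was lowest, 18 of 21 were below the untreated mean on each array, with medians of -0.74 and -0.73 against 0.07 and 0.12 over all genes. On the TCR 6 h array 19 of 21 were also below the untreated mean (median -0.93, against 0.17 over all genes). On each of the arrays with both agents 18 of 21 were below it (medians -0.20 and -0.65, against -0.02 and 0.16). The TCR 1 h array differed least from untreated, with 13 of 21 below and a median of -0.09, against 0.04 over all genes. In the contrast of IFNβ alone, 0 of the 21 passed by limma, but neither did any of the 19892 genes tested (0%). That count therefore says nothing particular about this list.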

How the data were processed

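Each array's spots were read from the deposited scanner output, whose intensity values (gProcessedSignal) were background-subtracted by Agilent Feature Extraction 10.7.3.1, per the file headers; the submitters' processing notes name version 9.5.3.1. The series value table, also deposited by the authors as a linear signal with a floor of 15, was used only as an alternative and to name the TCR 1 h pair. Its columns are each array's scanner intensity times 1 factor; how that factor was chosen is not given in the sources used here.

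From these, outlier spots were dropped, repeated spots averaged, and log2 signals scaled to each array's 75th percentile. Probes well above background on at least 2 arrays were kept, with the brightest probe per gene. Of 41174 probes, 26690 were named by accession through RefSeq (3169 with an updated symbol), and 14484 kept the file's name. A linear model (limma 3.58.1, run under R 4.3.3) had terms for IFNβ, TCR 1 h and TCR 6 h over 7 samples, and with interactions in a second fit. P-values were adjusted by Benjamini-Hochberg over all genes, with a threshold of 0.05. The fit was tested on simulated data. Named genes were the 8 members, the list genes, and the genes most like each member whose own SD was over 0.5. The members and lists were chosen with earlier results of these data known. Marker lists covered CD8 T, B, class II presenting, myeloid, NK, CD4 T and erythroid cells. Promoters came from the RefSeq GRCm38 table. The number of arrays limits the precision. Some genes of the lists are counted but not reported by name here.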

Additional observations from a re-analysis of the deposited data

Results flagged for a closer look

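The TCR difference at 6 h differed from that at 1 h for 4 of the 8 enzymes by limma's contrast of the 2 terms, where 31.7% of all genes were called, and no explanation was weighed. On the log2 scale it was larger at 6 h by 1.76 for Dnmt3a, 1.93 for Dnmt3b and 1.33 for Ezh2. For Tet2 the contrast was -0.90, and it passed in 7 of 18 alternatives and in none that left out 1 of the 6 treated arrays. The 1 h and 6 h arrays lie on different slides, and each slide holds an untreated array.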

How the results depend on the processing

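No analysis paired by animal was possible, because each treated condition was 1 array and no label ties arrays to the same animal. The slide block and same-slide differences were computed instead. For the 8 enzymes, the TCR 6 h count of 4 ranged from 2 to 4 on leaving out 1 array, and the 6 h against 1 h count of 4 from 1 to 4. The TCR 1 h count of 0 became 1 (Tet3) with the untreated arrays as separate samples, with normexp and quantile normalization, and with genes well above background on all 8 arrays. The count of 0 for IFNβ alone became 1 (Uhrf1) with separate untreated arrays and with the filter on all 8 arrays. The Tet2 call for 6 h against 1 h was lost with median scaling (-0.64), quantile normalization (-0.78), no filter on dim probes and the slide block. The Tet3 probe at base 4483 turned the 6 h direction to 0.51. Scaling to the array median moved the median of all genes at 6 h by 0.32, which turned the directions of Uhrf1 (0.28) and Tet2 (0.08), neither called. Under it, 5913 genes rose and 3537 fell at 6 h, against 4440 and 4480, and 4477 rose and 2395 fell at 6 h against 1 h, against 3256 and 3050.

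Over all genes, IFNβ calls numbered 10. They were 89 with separate untreated arrays, 0 with the scanner files' naming, without the TCR 1 h pair, with quantile normalization (with or without normexp) and on slide 2 alone, 43 with median scaling, 77 with the filter on all 8 arrays, 50 with the slide block, 256 on slide 1 alone and 25 with the value table. TCR 1 h calls numbered 832. They were 2514 with separate untreated arrays, 360 with the scanner files' naming, 1896 with normexp, 534 with no filter, 1654 with the filter on all 8 arrays and 396 on slide 1 alone. The slide block gave 2798 calls for 6 h against 1 h, in place of 6306. The 1 h interaction had 0 calls, and 64 with the scanner files' naming. IFNβ alone had 0, and 2053 with separate untreated arrays, 100 with normexp and 302 with the filter on all 8 arrays. Leaving out 1 array gave 0 to 279 calls for IFNβ, 33 to 812 for TCR 1 h, 4702 to 8892 for TCR 6 h and 2793 to 6317 for 6 h against 1 h. The cause of these changes was not tested. Interactions could not be fitted with a test without either array of IFNβ alone.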
